A study of Homo sapiens with 32 samples.

Results

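The data describe 2 xenograft tumors of ZR-75-1, an established luminal line from a human breast cancer that expresses the estrogen receptor, after 14 days of tamoxifen. The arrays were chosen by their titles, which name day 14, replicate 1 or 2 and the dye swap, and they are 4 of the 32 arrays of the series, from 2 of its 16 tumors. Female nude mice carried the tumors under the skin and all of them, controls included, received an estradiol (E2) pellet. Treated mice also received a pellet with 2.5 mg of tamoxifen released over 60 days. The tumors of day 14, called tumor 1 and tumor 2 after the replicate numbers of the labels, came from 2 mice. The other treated tumors were taken on day 1 (4 tumors, 2 mice), day 2 (2 tumors, 2 mice), day 4 (4 tumors, 3 mice) and day 7 (4 tumors, 3 mice). On every array RNA of 1 treated tumor was hybridized against the same pool of RNA from E2-only xenografts of days 0, 1, 2 and 4. Each tumor was hybridized with the dyes one way (forward array) and the other way (dye-swap array). A value below is a log2 ratio of treated tumor over pool, so that 1 is a doubling and a negative value is lower expression in the treated tumor. A tumor's value is the mean of its forward and dye-swap arrays, except for a tumor of day 4 named below.

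The ratios were measured for 9912 cDNA probes. Additional File 1 of the study gives gene names to 333 of them, which stand for 253 genes, and the other 9579 have no name in the sources used here. The study chose the 333 named probes on these same arrays for having changed on some day, so their counts are not independent evidence. A probe was called at an adjusted p under 0.05 over all 9912 probes. The pool holds no tumor of day 7 or 14, so tamoxifen and time cannot be told apart at day 14. It is also 1 sample, whose own spread is not part of a test against it, while it cancels in a difference between days. Which dye each scanned channel holds is not stated in the scanner output, and the sign used is that of the authors' value table and of Additional File 1. If the channels follow the sample labels instead, every sign here turns. By immunostaining of this xenograft model under tamoxifen, the study reported that TFF3 protein fell and IGFBP5 protein rose. The sign used here gives their RNA the same directions. The label of the dye-swap array of tumor 1 leaves out the letter that its forward array adds to the animal's number. One dye-swap array of day 4 was left out, since across probes its channel ratio correlated at 0.880 with that of another tumor's array, day 4 replicate 2 in the forward orientation. The label of the left-out array gives the tumor of day 4 replicate 3, whose value is therefore that of its forward array alone. The 4 arrays of day 14 had median signals of 2.53 to 4.34 times the local background, against 2.29 to 9.61 on the other arrays, and between 7 and 15 marked spots each. A ratio array gives no absolute level, but 2 of the luminal markers were above background in the treated tumors: ERBB3 at 5.44 to 8.89 times and MUC1 at 64.1 to 114 times the local background. ESR1, GATA3, the luminal keratins and EPCAM have no named probe.

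Tamoxifen competes with estradiol for the estrogen receptor, a transcription factor that in luminal breast cells switches on growth and secretory genes and holds back others. In breast tissue the tamoxifen-bound receptor recruits corepressors, and luminal tumor cells slow their passage from G1 into DNA synthesis. Genes of mitosis are transcribed late in the cycle through promoters that often hold CCAAT boxes, bound by the factor NF-Y, and a cell cycle homology element with the letters TTTGAA.

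At day 14, 623 of the 9912 probes were called (6.29%), 330 of them higher (3.33%) and 293 lower (2.96%) than in the pool. Among the 333 named probes 117 were higher (35.1%) and 133 were lower (39.9%), and 83 were not called. Among the 9579 unnamed probes 213 were higher (2.22%) and 160 were lower (1.67%). The study chose its probes over all its days at 1.5-fold and a p of at most 0.05 from its own calculation. At the same limits, with the unadjusted p of the limma fit used here, 518 of all probes passed at day 14 (5.23%). Of these 518 probes 267 were named. Changes were of moderate size for most probes, since 95% of the probes' means lay between -0.59 and 0.60. Of the called named probes 32 were at least 2-fold higher and 45 at least 2-fold lower, and 8 and 9 of these passed 4-fold. The median over all probes was 5.84e-05, and that over the named probes was -0.32. With 2 tumors the calls rest on the spread pooled over all days. Without tumor 1 there were 168 calls over all probes and without tumor 2 there were 30. In a tumor, fewer cells of a type and less RNA per cell give the same ratio, and they cannot be told apart here.

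**Figure D1:**
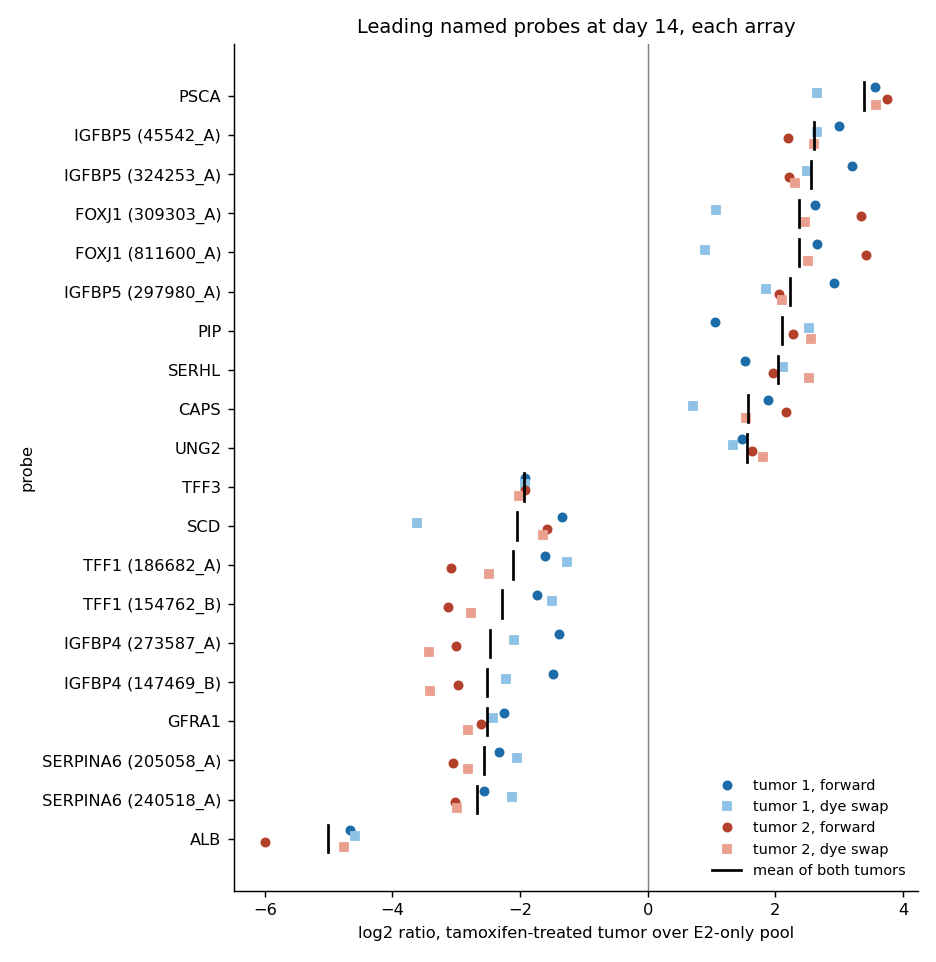
Log2 ratio over the E2-only pool (x axis) on each of the 4 arrays of day 14 for the 10 named probes with the largest rises and the 10 with the largest falls among those called with 1 sign on all arrays, with a black line at the mean of both tumors. ALB lies lowest at a mean of -5.00 and PSCA highest at 3.39, and the dye-swap array of SCD in tumor 1 stands apart at -3.61.

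The sequences below show the promoters of the 4 mitosis genes with the smallest adjusted p at day 14, because of the 4 lists searched the mitosis genes held the CCAAT and TTTGAA letters most often. They are the 180 bases before each gene's start, from RefSeq on GRCh38.p14 and written on the gene's own strand, with each CCAAT or TTTGAA, in either direction, in capitals. PRC1 (chr15:90994536-90994715, minus strand), which bundles microtubules of the central spindle, CDKN3 (chr14:54396827-54397006, plus strand), a phosphatase of cyclin-dependent kinases, NEK2 (chr1:211675622-211675801, minus strand), a centrosome kinase, and CCNA2 (chr4:121823884-121824063, minus strand), which encodes cyclin A2, were all lower at day 14.
PRC1: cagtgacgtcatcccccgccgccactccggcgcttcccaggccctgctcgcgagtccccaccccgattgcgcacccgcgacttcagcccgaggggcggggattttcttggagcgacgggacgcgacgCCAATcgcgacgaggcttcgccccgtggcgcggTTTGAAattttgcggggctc
CDKN3: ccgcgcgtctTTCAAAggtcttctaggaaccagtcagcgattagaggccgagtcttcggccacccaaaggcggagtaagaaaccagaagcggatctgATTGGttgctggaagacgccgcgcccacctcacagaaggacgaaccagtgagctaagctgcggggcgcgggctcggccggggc
NEK2: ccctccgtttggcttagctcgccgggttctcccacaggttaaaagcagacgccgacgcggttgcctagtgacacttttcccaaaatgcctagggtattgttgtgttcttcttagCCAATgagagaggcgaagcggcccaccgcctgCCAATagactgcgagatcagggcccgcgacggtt
CCNA2: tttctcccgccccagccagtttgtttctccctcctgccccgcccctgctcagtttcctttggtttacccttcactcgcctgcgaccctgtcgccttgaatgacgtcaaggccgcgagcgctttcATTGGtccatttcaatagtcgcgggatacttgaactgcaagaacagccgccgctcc
The CCAAT letters lay 53 bases before the start in PRC1, 83 in CDKN3, 66 and 34 in NEK2 and 56 in CCNA2, counted from its first base. TTTGAA lay 20 bases before the start in PRC1 and 170 in CDKN3. The shares below were counted over whole promoter entries, which begin further before the start than the 180 bases printed. CCAAT, in either direction, was in the entries of 15 of the 18 mitosis genes with one (83.3%), against 39.7% of all 27305 such genes. It was in 5 of 11 genes of DNA replication (45.5%), in 8 of 25 estrogen-induced genes (32%) and in 7 of 19 estrogen-repressed genes (36.8%). TTTGAA was found for 9 of the 18 mitosis genes (50%) and for 18.2% of all genes. It was in 0 of 11 genes of DNA replication, in 3 of 25 estrogen-induced genes (12%) and in 4 of 19 estrogen-repressed genes (21.1%). A full estrogen response element, with GGTCA and TGACC 3 free bases apart, was in none of the 4 lists' entries and in 0.0732% of all genes. This search took exact letters only. Of the 37 estrogen-induced genes 25 had an entry, and TFF1 and TFF3 were not among them. With a prediction program the study reported estrogen response elements in the promoters of a similar share of genes in each of its sets. All matches found here are of letters, and binding was not measured.

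The gene lists below can hold only named genes, which were chosen for having changed. The lists were also chosen with earlier results of these data known, so their counts describe the lists and do not test them. Some genes belong to several lists and count in each. A named probe was present for 37 of 46 estrogen-induced and 25 of 28 estrogen-repressed symbols, against 22 of 58 mitosis symbols. Of all 253 named genes, 34% were higher and 41.1% were lower, with a median of -0.26, and each list's count is to be read against these shares. Of 46 symbols that estrogen is known to induce 37 had a named probe, 32 of these were lower, against 41.1% of all named genes, none was higher, and the median was -1.07. The 5 that were not called were MYB, BTG2, CITED1, SLC9A3R1 and PHLDA1, at -0.57, -0.53, -0.12, -0.10 and 0.41. Without tumor 1 there were 17 calls in the list and without tumor 2 there were 5, and the median kept its sign.

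GFRA1, the coreceptor of glial cell line-derived neurotrophic factor (chr10:116056925-116274705), read -2.26 and -2.42 on the arrays of tumor 1 and -2.61 and -2.82 on those of tumor 2. All 4 arrays were below each of the 14 tumors of the other days, which lay between -1.72 and -0.03. Its mean was -2.53 ± 0.26 (SD, n = 2), a 5.76-fold lower level than in the pool (adjusted p = 7.65e-05). TFF1, a trefoil peptide secreted by luminal cells and a classical estrogen target (chr21:42362282-42366535), was at -1.73, -1.50, -3.14 and -2.77 on the same 4 arrays. Tumor 2 was lower than tumor 1 on both arrays, and the mean was -2.29 ± 0.95 (SD, n = 2, adjusted p = 6.92e-06). The neighboring gene for a second trefoil peptide, TFF3 (chr21:42311667-42315409), differed little between the tumors, with -1.92, -1.92, -1.92 and -2.02. It fell by 1.94 on the log2 scale (SD 0.03, n = 2, adjusted p = 4.24e-05), below the lowest other tumor at -1.93 in tumor 2 only. For GFRA1, TFF3 and 1 of 2 TFF1 probes the call held when either tumor was left out.

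EGR3, a zinc finger transcription factor of the immediate early class, was at -1.86, -1.44, -1.99 and -1.97, lower on every array than any of the other tumors, whose lowest was -1.13 (mean -1.81 ± 0.23, n = 2, adjusted p = 9.98e-05). CYP1B1, a cytochrome P450 that hydroxylates estradiol, had a mean of -1.69 ± 0.64 (SD, n = 2, adjusted p = 0.000291). HSD17B1, which converts estrone to estradiol, read -0.75 on the forward array of tumor 1 and between -1.58 and -1.77 on the others, with a mean of -1.44 ± 0.33 (SD, n = 2, adjusted p = 0.000291). Thus 2 enzymes of estradiol metabolism, one that makes the hormone and one that breaks it down, were both lower. OLFM1, a secreted olfactomedin-domain protein, was lower on 4 of its 5 probes, at -1.06 to -1.35, with adjusted p between 8.3e-05 and 0.00106, and not called on the fifth, at -0.49. FOS, a subunit of AP-1, was lower on 3 probes at -1.12 to -1.76, the lowest adjusted p being 0.0159. PDZK1, a scaffold of membrane transporters, was at -0.85 and -0.50 in tumor 1 and at -2.62 and -2.08 in tumor 2. The tumors did not overlap, and the call of PDZK1 (mean -1.51 ± 1.19, n = 2, adjusted p = 0.00878) was lost without tumor 2, when its value was -0.67. The calls of CYP1B1 and HSD17B1 were also lost without tumor 2, at -1.23 and -1.21.

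The genes of insulin and IGF signaling moved in opposite directions. IGFBP4, a secreted binding protein of insulin-like growth factors (chr17:40443450-40457725), was at -1.48 and -2.22 in tumor 1 and -2.97 and -3.42 in tumor 2 on 1 probe. Tumor 2 was lower on both arrays, the mean was -2.52 ± 0.95 (SD, n = 2, adjusted p = 0.00268), and the second probe gave -2.48. On the first probe the other tumors went from -3.13 to -0.40, so that the mean and tumor 1 (-1.85) were inside their range and tumor 2 (-3.19) was just below it. IGFBP5, a binding protein of the same family that is also deposited in matrix (chr2:216672105-216695549), was at 3.20, 2.49, 2.22 and 2.31 on its brightest probe. It rose by a mean of 2.56 ± 0.41 (SD, n = 2, adjusted p = 0.0036), and its other 2 probes by 2.61 and 2.23. The other tumors of the series spread from -0.07 to 3.41, so that day 14 stood inside their range. IGF1R, the receptor, was lower at -0.72 ± 0.31 (SD, n = 2, adjusted p = 0.0187), and IRS1, its docking protein, was lower at -0.65. IGFBP7 was not called, at 0.72 with an adjusted p of 0.164. Of the 5 measured genes of the list 3 were thus lower and 1 was higher, against 41.1% and 34% of all named genes. With so few genes this is no result about the list. Without tumor 2 the IGFBP4 probe was at -1.85 and no gene of this list was called, and without tumor 1 only 1 was.

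Mitosis genes were lower, with no exception among those called. Of 22 measured genes 16 were lower and none was higher, with a median of -0.65, where 41.1% of all named genes and 2.96% of all probes were lower. PRC1 read -0.80, -1.16, -1.04 and -0.87, all below the other tumors, whose lowest was -0.62. Its mean was -0.97 ± 0.02 (SD, n = 2, adjusted p = 0.000278), and a second probe gave -0.83. CDKN3 was at -1.13, -0.38, -1.16 and -1.34 (-0.76 in tumor 1 and -1.25 in tumor 2, SD 0.35, n = 2, adjusted p = 0.000292). NEK2 was at -0.94, -0.44, -1.01 and -0.65 (mean -0.76 ± 0.10, n = 2, adjusted p = 0.000394), and CCNA2 at -0.94, -0.82, -1.30 and -0.77 (mean -0.96 ± 0.11, n = 2, adjusted p = 0.000566). For CDKN3 and NEK2 the dye-swap array of tumor 1 gave the weakest fall. MYBL2, a transcription factor of the late cell cycle, had the lowest mean of the list at -1.16 ± 0.51 (SD, n = 2, adjusted p = 0.00372). CKS2, a subunit of cyclin-dependent kinases, was lower at -0.95 on its brightest probe and not called on its other, at -0.50. BUB1B, a kinase of the spindle checkpoint, fell by 0.79 and TACC3, a spindle protein, by 0.68 on the log2 scale. UBE2C, the ubiquitin-conjugating enzyme of the anaphase-promoting complex, fell by 0.76. AURKA, a spindle pole kinase, was lower at -0.54. MKI67, whose protein is the Ki-67 proliferation antigen, was called on 1 probe (-0.74, adjusted p = 0.0163) and not on its brightest probe (-0.47), and CENPF, a kinetochore protein, was not called at -0.37. With median centring alone 7 mitosis genes were lower. Without tumor 1 there were 10 and without tumor 2 there was 1.

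Genes of DNA replication and nucleotide supply followed. Of 12 measured genes 10 were lower, against 41.1% of all named genes, none was higher, and the median was -0.63. RRM2, the small subunit of ribonucleotide reductase, read -0.86, -0.88, -0.94 and -0.56. Its mean was -0.81 ± 0.09 (SD, n = 2, adjusted p = 0.00014), and it remained called without either tumor. KIAA0101, a clamp-associated protein of the replication fork, was at -1.51, -0.48, -0.96 and -1.37, with a mean of -1.08 ± 0.12 (SD, n = 2, adjusted p = 0.000489). TK1, the thymidine kinase of S phase, was lower at -0.65, and the helicase subunits MCM6 and MCM2 were lower at -0.53 and -0.48. The 2 genes that were not called, GMNN, an inhibitor of replication licensing, and CTPS, which makes CTP, were at -0.35 and -0.32. With median centring alone 3 of the 12 were lower, with 4 without tumor 1 and 1 without tumor 2.

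**Figure D2:**
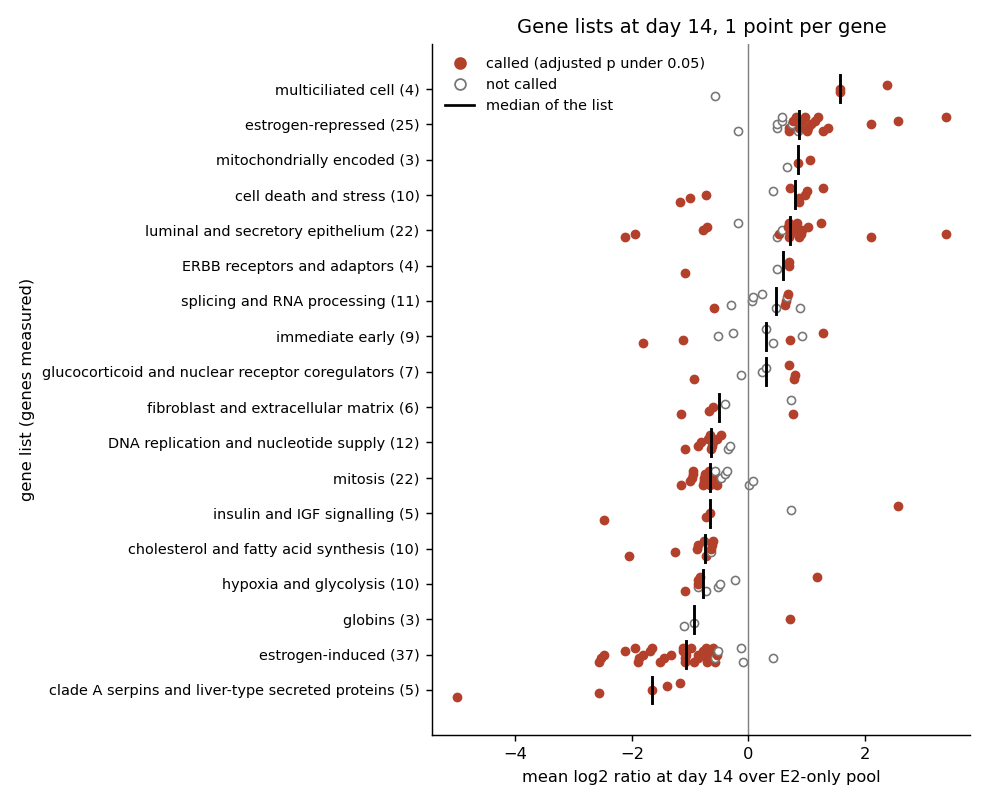
Mean log2 ratio at day 14 over the E2-only pool (x axis) for each measured gene of each list, 1 point a gene, filled where called, with a black line at the list's median. Liver-type secreted proteins (median -1.66) and estrogen-induced genes (-1.07) lie lowest, and multiciliated cell genes (1.57) and estrogen-repressed genes (0.86) highest.

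Of 10 measured genes of fat and sterol synthesis 9 were lower, against 41.1% of all named genes, with a median of -0.75. SCD, the desaturase that makes oleate, was at -1.35, -3.61, -1.57 and -1.64. A single array, the dye swap of tumor 1, was far below the other 3, and the mean was -2.04 ± 0.62 (SD, n = 2, adjusted p = 0.0317), a call lost without either tumor. SCARB1, the receptor for high-density lipoprotein, was at -0.49, -1.42, -0.71 and -0.87 (mean -0.87 ± 0.12, n = 2, adjusted p = 0.00206). ME1, which supplies NADPH, was lower at -0.77 (adjusted p = 0.000783), and EBP, a sterol isomerase, and ELOVL5, a fatty acid elongase, were both lower at -0.62. Without tumor 1 there were 3 calls in this list, without tumor 2 there was 1, and with median centring alone there were 3. Among genes of hypoxia and glycolysis 4 of 10 were lower and 1 was higher, with a median of -0.79, so that the share that was lower was near the 41.1% of all named genes and is no result about this list. CA12, a membrane carbonic anhydrase, was lower at -1.10 ± 0.72 (SD, n = 2, adjusted p = 0.0146) and at -0.59 in tumor 1 alone, where it was not called. PLOD2, which hydroxylates collagen lysines, SIAH2, a ubiquitin ligase, and PPP1R3C, a glycogen-targeting phosphatase subunit, were lower at -0.87, -0.86 and -0.83. SIAH2 was called on only 1 of its 3 probes. STC1, a secreted glycoprotein, was the one that was higher, at 1.17 with an adjusted p of 0.0418. Without tumor 1 there was 1 call in this list, a fall, and without tumor 2 there was none.

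The largest fall of all 9912 probes was that of ALB, the gene for serum albumin (chr4:73404287-73421482). It read -4.67 and -4.59 in tumor 1 and -6.00 and -4.76 in tumor 2, with a mean of -5.00 ± 0.53 (SD, n = 2), 32.1-fold below the pool (adjusted p = 0.00101). The ALB signal was 35.7 to 135 times the local background in the pool and 3.13 to 6.00 times in the treated tumors. The other tumors of the series ran from -5.14 to -0.32, and day 14 was not called against them. SERPINA6, the plasma carrier of cortisol (chr14:94304248-94323336), was at -2.56, -2.13, -3.01 and -2.99 on 1 probe, a mean of -2.67 ± 0.46 (SD, n = 2, adjusted p = 0.00107), and at -2.56 on its second. SERPINA1, the elastase inhibitor alpha-1-antitrypsin (chr14:94376747-94390635), which lies near it, was lower at -1.66. SERPINA4, an inhibitor of kallikrein, and MAT1A, the liver enzyme that makes S-adenosylmethionine, were lower at -1.40 and -1.17. All 5 measured genes of this list were thus lower, against 41.1% of all named genes, and the median was -1.66. Each of these calls was lost without tumor 2, when ALB was at -4.63, and 2 of the 5 were called without tumor 1. SERPINA6 and SERPINA1 also belong to the estrogen-induced list. So do IGFBP4, IGF1R and IRS1 of IGF signaling, SCARB1 and ELOVL5 of fat and sterol synthesis, and CA12 and SIAH2 of hypoxia, among others.

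Of 25 measured genes that estrogen is known to hold back 18 were higher, against 34% of all named genes, none was lower, and the median was 0.86. There were 11 calls without tumor 1 and 4 without tumor 2. PSCA, a membrane-anchored antigen of the prostate stem cell antigen family, had the largest rise of all 9912 probes, with 3.56, 2.66, 3.75 and 3.58. All 4 arrays lay far above the 14 other tumors, which ended at 0.80. The mean was 3.39 ± 0.39 (SD, n = 2), 10.5-fold above the pool (adjusted p = 7.66e-09). The PSCA signal was 19.9 to 47.4 times the local background in the treated tumors and 2.47 to 4.85 times in the pool. PIP, a secreted protein of apocrine cells (chr7:143132077-143139739), was at 1.06, 2.53, 2.28 and 2.56, with a mean of 2.11 ± 0.44 (SD, n = 2, adjusted p = 3.98e-05), and both tumors were above the highest other tumor at 0.94. MUC1, a mucin of the apical membrane (chr1:155185824-155192915), was at 1.40, 0.57, 1.22 and 0.89, while the other tumors lay between -1.05 and 0.03. Its mean of 1.02 ± 0.05 (SD, n = 2, adjusted p = 0.00628) was thus above the pool, and the median of the other tumors, -0.60, was below it. The call of MUC1 was lost without tumor 1 (1.06) and without tumor 2 (0.98). SELENBP1, a selenium-binding protein, TXNIP, an inhibitor of thioredoxin, and CLU, a secreted chaperone, were higher at 1.07, 1.00 and 0.97, with adjusted p of 0.000236, 0.0012 and 0.000187, and these 3 calls were lost without tumor 2, at 0.98, 0.86 and 0.80.

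In the list of luminal and secretory epithelium 15 of 22 genes were higher and 4 were lower, against 34% and 41.1% of all named genes, with a median of 0.70. The 4 were TFF1, TFF3, WFDC2 and SLC39A6, of which the first 3 encode secreted proteins and the last a zinc transporter. WFDC2 was at -0.78 and SLC39A6 at -0.72. Without tumor 1 there were 9 higher and 2 lower, and without tumor 2 there were 3 and 1. Of the ERBB family and its adaptors, ERBB3, a receptor of neuregulins, and GRB7, an adaptor of ERBB2, were higher at 0.69 and 0.70 (adjusted p = 0.01 and 0.00878). Neither was called without tumor 1 or without tumor 2. ERBB2 read 0.92, -0.49, 1.00 and 0.52, with both signs in tumor 1, and was not called at 0.49.

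Among genes of cell death and stress 6 of 10 were higher and 3 were lower, against 34% and 41.1% of all named genes, with a median of 0.79. IER3, an early response gene that modulates apoptosis, was higher at 1.28 ± 0.14 (SD, n = 2, adjusted p = 0.00522), and PERP, a membrane protein of desmosomes and of p53-dependent apoptosis, at 0.86 (adjusted p = 0.000578). PHLDA2, a pleckstrin-homology protein of an imprinted locus, was at -1.29, -1.18, -1.15 and -1.11. It was the steadiest fall of the list, with a mean of -1.18 ± 0.08 (SD, n = 2, adjusted p = 7.04e-05), and remained called without either tumor. In the immediate early list 2 of 9 were higher, IER3 and RHOB, a small GTPase at 0.72, and 2 were lower, EGR3 and FOS. Both shares were below the 34% and 41.1% of all named genes. Without tumor 1 the cell death list had 4 higher and 1 lower, and without tumor 2 none higher and 1 lower.

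FOXJ1, the master transcription factor of motile cilia (chr17:76136333-76141245), was at 2.62, 1.07, 3.35 and 2.46 on 1 probe. The dye swap of tumor 1 was lowest, and both tumors' means, 1.84 and 2.90, lay above the other 14, which ended at 1.06. The mean was 2.37 ± 0.75 (SD, n = 2, adjusted p = 3.32e-06), and the second probe also gave 2.37. CAPS, the calcium-binding protein calcyphosine (chr19:5914254-5916211), was at 1.88, 0.72, 2.17 and 1.54, against at most 0.40 in the other tumors (mean 1.58 ± 0.39, n = 2, adjusted p = 5.13e-06). The probe named UNG2 was at 1.48, 1.34, 1.63 and 1.80, against at most 0.63 (mean 1.56 ± 0.22, n = 2, adjusted p = 1.79e-06). That older symbol points in RefSeq both to a uracil-DNA glycosylase and to CCNO, a cyclin-like protein of multiciliated cells. Additional File 1 lists the probe with an Ensembl identifier of CCNO. Which of the genes the clone represents was not checked further. MYB, the only other measured gene of the multiciliated cell list, was not called at -0.57. With the UNG2 probe counted as a member, 3 of 4 were thus higher, against 34% of all named genes, with or without either tumor. The list has 21 symbols, and structural genes of the cilium among them have no named probe.

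Smaller lists gave mixed calls, none of which is a result about its list, since few genes were measured and 34% of all named genes were higher. Of 7 coregulators and glucocorticoid genes 3 were higher: NR3C1, the glucocorticoid receptor, at 0.79, PBXIP1, a partner of estrogen receptors, at 0.80 and NCOA1, a coactivator, at 0.69. FKBP5, a chaperone that glucocorticoids and progestins induce, was lower at -0.93, with -1.50 and -1.75 on the forward arrays but -0.36 and -0.13 on the dye swaps, and its tumor signal went down to 1.54 times background. Without tumor 1, 2 of these genes were called, and without tumor 2 none was. Of 11 splicing genes 3 were higher, RBM6, SFRS5 and CLK1 at 0.68, 0.64 and 0.63, and CPSF5 was lower at -0.59, a share of rises no larger than that of all named genes. Of 3 mitochondrially encoded transcripts MTND1 and MTCYB were higher at 1.05 and 0.85, and MTND5 was not called at 0.67. None of the mitochondrial or splicing genes was called without either one of the tumors.

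RNA of other cells could contribute to the ratios, since mouse stroma grows into a xenograft. Of 28 fibroblast and matrix symbols 6 were measured, 1 of them higher and 3 lower, with a median of -0.51. Against 34% and 41.1% of all named genes, these few calls are no result about the list. MGP, a calcification inhibitor of the matrix, was at -1.02, -0.53, -1.50 and -1.55 (mean -1.15 ± 0.53, n = 2, adjusted p = 0.000711, and -0.78 and not called without tumor 2). LGALS1, a galectin, and FN1, fibronectin, were lower at -0.68 and -0.61. The second FN1 probe, at -0.67, was not called. LAMA3 was not called at -0.40 and IGFBP7 not at 0.72, and MYLK, a kinase of contractile cells, was higher at 0.76. Collagens and DCN have no named probe, nor has any gene of the endothelium, macrophage or adipocyte lists. Of the globins, MB, myoglobin, was higher at 0.72, and HBG1 and a probe shared by HBZ, HBA1, HBA2 and HBQ1 were not called at -1.11 and -0.93. The part of such cells in the results above was not tested.

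The 4 arrays had 1 sign for 287 of the 332 named probes with all arrays (86.4%) and for 26.2% of all 9869 such probes. Tumor 1 gave r = 0.0607 between its forward and dye-swap arrays across all probes, where most ratios were near 0, and 0.767 across the named probes. Tumor 2 gave 0.465 and 0.945. The 2 forward arrays, which share the dye, gave 0.582 over all probes and the 2 dye-swap arrays 0.610. The means of the tumors correlated at 0.658 over all probes and 0.920 over the named probes. These correlations are across probes, which are not independent and share the pool.

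**Figure D3:**
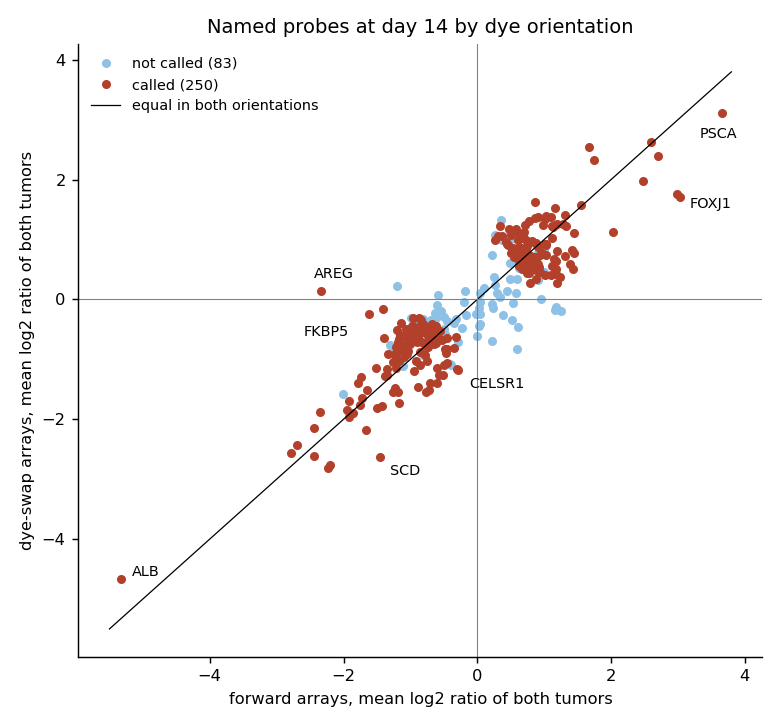
Mean log2 ratio of both tumors on the forward arrays (x axis) and on the dye-swap arrays (y axis) for the named probes, by call, with a line of equality. Most called probes lie near the line, while AREG is at about the same level as the pool on the dye swaps (mean 0.15) and far below it on the forward arrays.

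AREG, the ERBB ligand amphiregulin and a known estrogen target, differed between the dye orientations. It read -2.39 and -2.28 on the forward arrays and 0.00 and 0.30 on the dye swaps. The mean of -1.09 was called (adjusted p = 0.00522), and on the dye-swap arrays alone it was 0.15. On the dye swaps the AREG signal was 2.02 and 2.46 times the local background in the tumors and 2.12 and 3.04 times in the pool, against 6.12 to 6.27 and 20.8 to 32.1 times on the forward arrays. The cause of the difference was not tested. AREG, CELSR1, a cadherin of planar cell polarity, at -0.73, and TSPO, a mitochondrial cholesterol-binding protein, at -0.73 were the 3 called named probes without 1 sign on all arrays.

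**Figure D4:**
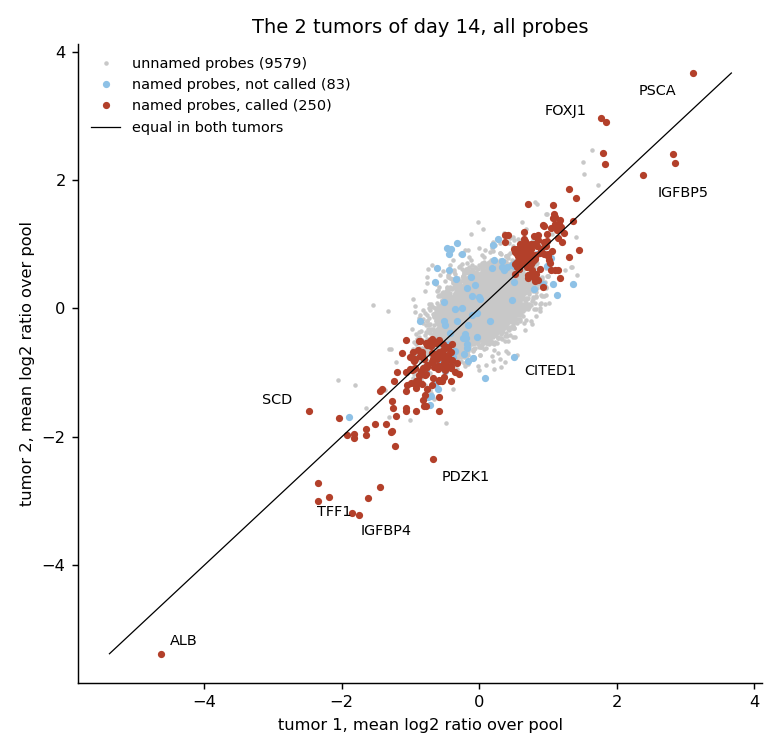
Mean log2 ratio over the pool in tumor 1 (x axis) and tumor 2 (y axis) for all probes, with named probes colored by call and a line of equality. Called probes follow the line, with PDZK1 (-0.67 in tumor 1, -2.35 in tumor 2) and IGFBP4 below it and FOXJ1 (1.84 and 2.90) above it.

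Both arrays of tumor 2 lay below both arrays of tumor 1 for 82 of 332 named probes (24.7%), against 12.5% of all probes, and above both for 53 (16%), against 11.8%. Among probes so separated, the means were 1 or more apart for 14 named probes (4.22%) and for 0.415% of all probes. Among the 14 were PDZK1, CA12 and both probes each of IGFBP4 and TFF1, all lower in tumor 2. CITED1, a transcriptional coactivator, was at 0.28 and 0.73 in tumor 1 and at -0.67 and -0.82 in tumor 2, and its mean of -0.12 was not called. With 2 tumors this difference has no test. Of the 63 genes with several named probes 46 had all probes called, 10 some and 7 none. SVIL, the actin-binding supervillin, was lower on 1 probe (-0.63) and higher on the other (0.87), both called.

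Against day 7, the nearest time, 8 probes were higher at day 14 (0.0807%) and 0 were lower, with 763 of all probes at an unadjusted p under 0.05 (7.7%). The 8 were PSCA, both FOXJ1 probes, CAPS, UNG2, PIP, MUC1 and 1 probe without a name, which is 2.1% of the named and 0.0104% of the unnamed probes. PSCA was 3.30 higher than at day 7 on the log2 scale (adjusted p = 3.32e-07), FOXJ1 1.75 (0.00394 and 0.041), PIP 1.59 (0.0337), MUC1 1.46 (0.0341), CAPS 1.28 (0.00269) and UNG2 1.13 (0.00269). When tumor 2 was left out, 1 of the 8 calls was left over all probes, and without day 7 replicate 2 there were 19.

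Against the mean of the 4 other days, 34 probes were called (0.343%), 20 higher at day 14 (0.202%) and 14 lower (0.141%), with 1190 at an unadjusted p under 0.05 (12%). Of the named probes 11 were higher (3.3%) and 10 lower (3%), and of the unnamed probes 9 were higher (0.094%) and 4 lower (0.0418%). The largest differences among the named probes that were lower were GFRA1, 1.97 below the other days on the log2 scale as coded by day 14 minus their mean (-1.97, adjusted p = 0.00791), CYP1B1 (-1.20, 0.0397), EGR3 (-1.14, 0.0378), HSD17B1 (-1.11, 0.025) and SCARB1 (-0.92, 0.0184). PRC1 (-0.73, on 1 of its 2 probes) and RRM2 (-0.56) were also lower than on the other days. The largest among the named probes that were higher were PSCA (3.23, adjusted p = 5.62e-08), FOXJ1 (1.99 and 1.94), PIP (1.91), MUC1 (1.58) and CAPS (1.40). Leaving out day 14 replicate 2 left 1 call over all probes, leaving out day 14 replicate 1 left 11, and leaving out day 7 replicate 2 gave 61. Both tumors of day 14 lay above all 14 others for 70 of 331 named probes (21.1%), against 3.28% of all probes, and below them for 48 (14.5%), against 2.32%. IGFBP5, IGFBP4, ALB and SERPINA6, which differed strongly from the pool, were not among them.

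**Figure D5:**
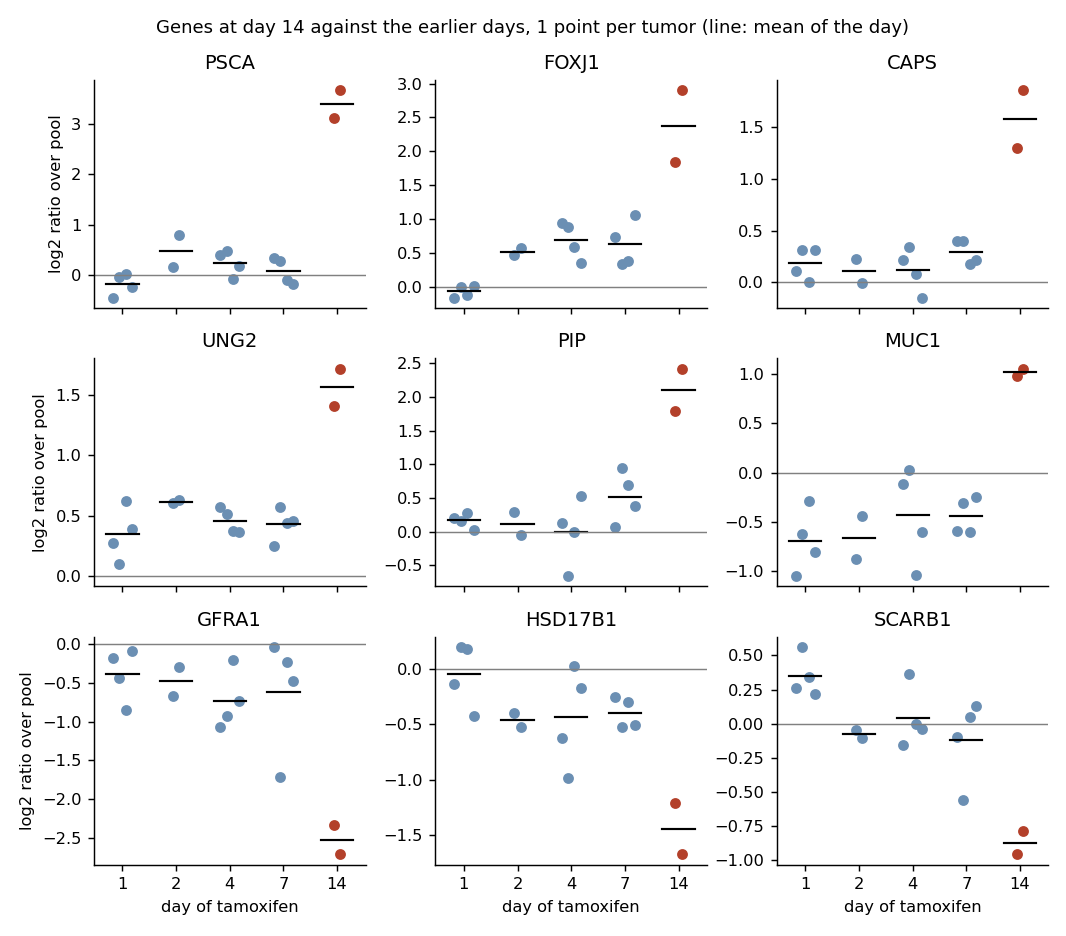
Log2 ratio over the E2-only pool (y axis) by day of tamoxifen (x axis) for 9 genes, 1 point a tumor, day 14 in red, with a line at each day's mean. Both tumors of day 14 lie above all others for PSCA, FOXJ1, CAPS, UNG2, PIP and MUC1, and below all others for GFRA1, HSD17B1 and SCARB1.

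Of the 86 calls against the pool among the values named by rule, 14 held in each of the 33 other settings tried, and these were the same 14 that held when tumor 1 and when tumor 2 was left out. They belong to PSCA, FOXJ1 (2 probes), CAPS, UNG2 and PIP on the higher side and to TFF1, TFF3, GFRA1, EGR3, OLFM1, PHLDA2, RRM2 and PRC1 on the lower. The other TFF1 probe lost its call without tumor 2. Of the 5 probes of OLFM1 and the 2 of PRC1, only 1 each was tried in the settings. Without tumor 1, 40 of the 86 calls were lost, and without tumor 2, 71.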

How the data were processed

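RNA of each treated tumor and of the E2-only pool was compared on 2-colour Sanger cDNA arrays. The intensity values are spot and local background brightness of each channel, as the authors scanned and deposited them, with no correction. The authors also deposited log2 ratios, made in limma (version not given in the sources used here) by background correction, loess and quantile normalization, which served as an alternative.

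With limma 3.58.1 (statmod 1.5.0, R 4.3.3) marked spots were left out, background was corrected by normexp with an offset of 50, and loess within and quantile normalization between arrays followed. Both orientations were averaged per tumor, except for day 4 replicate 3, which had its forward array alone. The tumors of all days entered 1 lmFit with day means and a random block for mouse (correlation 0.0206), eBayes and Benjamini-Hochberg adjustment over 9912 probes, and adjusted p values are from limma. Day 14 was tested against 0, day 7 and the mean of the other 4 days. The fit was tested on simulated data. The number of tumors limits the precision, and the p values measure the spread between these samples, which all derive from 1 cell line.

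Names come from Additional File 1. RefSeq held 217 of the 253 symbols as current and 33 as older names, and 3 were not matched to 1 gene. The brightest probe stands for a gene in a list. The members and the gene lists were chosen with earlier results of these data known. Genes named are the 10 largest called changes in each direction with 1 sign on all arrays, up to 4 members of each list with the smallest adjusted p (all members of lists with 6 or fewer measured), genes named in the study's text, and the 5 largest differences between days in each direction. CITED1, SLC9A3R1, PHLDA1, GMNN, CTPS, GGH, WFDC2, SLC39A6, STC1, TSPO and SVIL, and single array values quoted for contrast, were chosen after their values were seen. Alternatives covered background, normalization, spot marks, dim probes, mouse, dye, fitting day 14 alone, array weights, the authors' ratios, the left-out array, leaving out each tumor and the replicate number as a block.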

Additional observations from a re-analysis of the deposited data

Results flagged for a closer look

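The probes below differed between day 14 and the other days by the test of that difference, in which the pool cancels. Values are log2 differences.

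Against the mean of days 1, 2, 4 and 7, day 14 was higher for PSCA (3.23), FOXJ1 (1.99 and 1.94 on its 2 probes), PIP (1.91), MUC1 (1.58), CAPS (1.40) and UNG2 (1.10). Smaller rises were those of PPAP2C, a lipid phosphatase (0.82), RUTBC3, whose current name is SGSM3 (0.82), CD9, a tetraspanin (0.78), and MYLK (0.68). Day 14 was lower for GFRA1 (-1.97), CYP1B1 (-1.20), EGR3 (-1.14), HSD17B1 (-1.11), SCARB1 (-0.92) and MAPT, the microtubule-binding protein tau (-0.89). It was also lower for both probes of MPP2, a membrane scaffold (-0.86 and -0.83), 1 of 2 probes of PRC1 (-0.73) and RRM2 (-0.56). Except for PSCA, each of these 21 calls was lost in at least 1 other setting, and 20 were lost without day 14 replicate 2.

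Against day 7, day 14 was higher for PSCA (3.30), FOXJ1 (1.75 on both probes), PIP (1.59), MUC1 (1.46), CAPS (1.28) and UNG2 (1.13). Of these 7 calls, 6 were lost without day 14 replicate 2 and 1 without day 14 replicate 1.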

How the results depend on the processing

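The 96 values against the pool gave 3168 values over 33 settings, of which 2909 kept the direction and the side of the threshold, 232 lost the call and 26 gained it. One turned, AREG at 0.15 on the dye-swap arrays alone. The 7 differences from day 7 kept 176 of 224 calls and the 21 differences from the other days 517 of 672. Of the 623 calls against the pool over all probes, other settings gave 1055 (dye term) and 1440 (array weights). Leaving out 1 tumor gave 30 to 730, and 24 to 258 of the named probes, against 250. Median centring alone gave 325 higher and 109 lower, against 330 and 293. The 8 calls against day 7 became 5 with 1 mean per mouse or with the left-out array used, 105 with a dye term, 13 in the authors' table and 117 with array weights, and ranged from 1 to 19 with 1 tumor left out. The 34 calls against the other days became 58 without background correction, 15 without quantile normalization, with Aquantile or with median centring alone, 209 with a dye term, 14 on forward arrays, 17 on dye swaps, 65 in the authors' table and 272 with array weights, and ranged from 1 to 61 with 1 tumor left out. The causes were not tested. The differences between replicates 1 and 2 correlated at 0.062, 0.053, 0.167 and -0.044 between day 14 and days 1, 2, 4 and 7. By the labels replicates 1 and 2 came from 1 animal on days 1 and 4 and from different animals on the other days. These differences are therefore not alike, and whether a replicate number stands for more than a tumor's name was not tested. With the number as a replicate block there were 328 calls over all probes, 190 of named probes, 7 against day 7 and 24 against the other days. Dim signal limits FKBP5, at 1.54 times background, and other probes. At their lowest, GGH of the replication list was at 1.49, the unnamed probe 45138_A at 1.77 and SERHL, in the pool, at 1.92 times background.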

Other observations

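Among the 9579 probes without a name, the probe 45138_A read 1.82, 1.44, 2.51 and 2.44 on the 4 arrays of day 14, and 1440913_A read 1.13, 1.90, 2.27 and 2.29. Their means were 2.05 and 1.90, at the level of PIP and SERHL among the named probes. Both were also higher at day 14 than on the other days, by 1.57 (45138_A, adjusted p = 0.0292) and by 1.73 (1440913_A, adjusted p = 0.000163). Of those that fell, 149186_A had a mean of -1.60 and 42919_A one of -1.58. On 42919_A the dye swap of tumor 1 was at -3.62 and its forward array at -0.48, an array pair further apart than that of SCD.

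SERHL, a serine hydrolase, rose by a mean of 2.04 ± 0.30 (SD, n = 2, adjusted p = 0.00151) and was above all other tumors, which ended at 1.62, without belonging to any of the lists.

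By the 6 sets into which the study sorted its probes on these same arrays, set 6 held 116 of the 117 higher named probes among its 159 members, with none lower and a median of 0.75. The other sets held 133 of 133 lower ones: 33 of 40 in set 1, 12 of 25 in set 2, 20 of 24 in set 3, 19 of 25 in set 4 and 49 of 60 in set 5. Since these data made the sets, this is a description.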
